A study of Bos taurus with 12 samples.

Results

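The regions described here are stretches of the cattle genome with a called peak in both medium libraries of tough beef and in neither of tender beef. Most of them had a tender peak once the tender reads were merged (668 of 918, below), so they were not free of capture in tender beef. The peaks of the 4 libraries of medium methylated DNA (MTE, tender, and MTO, tough, 2 libraries each) that shared at least 1 bp were joined on chromosomes 1 to 29, and regions were chosen by peak presence alone: one was kept when both MTO libraries and neither MTE library had a peak in it. This gave 918 tough-specific regions among 50592 regions, or 1.81%. The mirror rule gave 4466 tender-specific regions, and 4552 regions had a peak in exactly 1 MTE and 1 MTO library. Since the rule used the peaks of the medium libraries, all values of MTE and MTO below are a description and were not tested. The libraries of the other eluates were not used by the rule, although they came from the same 4 animals.

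Methylated DNA was captured by MBD-seq from longissimus muscle of Angus steers, an inbred group about a year old, and was eluted in 3 serial steps. Of the 4 animals sequenced, 2 came from the tender and 2 from the tough end of the shear force of cooked meat, and the labels give no treatment or genetic change for any of them. Each animal gave a high (HTE, HTO), a medium (MTE, MTO) and a low (LTE, LTO) methylated library, 12 in all, and the authors also called peaks on the merged reads of each group, which gave 6 merged lists. The muscle is named longissimus lumborum in the Methods and longissimus dorsi in the labels. The sources differ on which salt step released which part, so libraries are named here by methylation level only. Muscle is a mixture of cell types, and a different make-up of cells and a different methylation within cells cannot be told apart in these libraries. The paper reports that crude fat also differed between the tender and tough groups from which these animals were drawn. Fat and shear force cannot be told apart here either.

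The capture protein (MethylCap) holds DNA through its methylated CpG dinucleotides, and fragments with more methylated CpGs bind more tightly. Serial elution therefore sorts fragments by how densely they are methylated. A region can move between eluates when the number of methylated CpGs on its fragments changes, as well as appear or disappear from all of them. Dense methylation at promoters is known for its association with silent genes, whereas methylation within gene bodies is common in active ones. Which genes, CpG islands or repeats lie under the regions was not analysed here, because a genome of the build of the lists, bosTau8, was not used. No sequence is shown for the same reason.

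The depth behind the lists differed with the beef. After duplicate removal the MTE libraries had 6589423 and 6886676 tags and the MTO libraries 6010993 and 5969045. Before it they had 11889327 and 12635437 mapped tags in MTE and 14981895 and 13439772 in MTO. A larger part was thus removed as duplicates in MTO, and what this did to the peaks called was not tested. The MTE libraries had 33562 and 35688 peaks on chromosomes 1 to 29, and the MTO libraries 23982 and 24797. The estimated fragment length was 157 and 146 bp in MTE and 162 and 175 bp in MTO. The high libraries had 4526538 and 4843388 tags in HTE and 3677473 and 3721723 in HTO, and the low libraries 5770411 and 7165381 in LTE and 7981292 and 7212507 in LTO. Taking the 23982 strongest peaks of each medium library in place of all peaks gave 2252 tough-specific regions, and leaving out 1 library gave 1721 (without MTE replicate 1), 2138 (without MTE replicate 2), 3702 (without MTO replicate 1) or 3311 (without MTO replicate 2).

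The tough-specific regions were of a pair of distinct kinds. Most were low and sharp peaks, and a minority were very tall stacks of reads that stood only slightly above their surroundings. The smaller of the MTO pileups, that is the number of fragments stacked at the summit, was under 20 in 793 of the 918 regions and 50 or more in 109 (11.9%, Wilson 95% interval 9.94 to 14.1%), and only 16 lay between 20 and 49. The intervals cover counting error only. In the 109 tall regions the smaller MTO pileup ranged from 76 to 279 with a median of 172, and the smaller fold enrichment over the local background had a median of 1.71. In the other 809 regions the median pileup was 9 and the median fold enrichment 5.98. A fold enrichment under 3 in both MTO libraries was found in 104 of the 109 tall regions, and in 1 of the 809 others the smaller value was under 3. By the highest pileup over the 4 medium libraries, 12.2% of all other medium regions were this tall, so the share of tall regions was at the background. It was 36.3% in the regions with a peak in all 4 medium libraries, 3.52% in the tender-specific regions and 2.97% in those with a peak in 1 MTE and 1 MTO library. The limit of 50 was chosen after the values were seen.

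**Figure D1:**
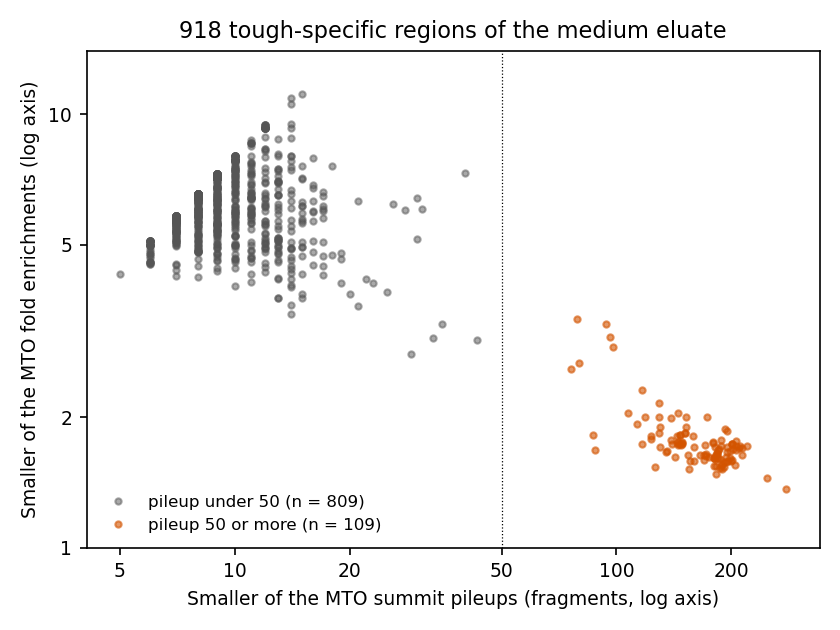
The smaller of the MTO summit pileups (fragments, log axis) is plotted against the smaller of the MTO fold enrichments (log axis) for each of the 918 tough-specific regions. The 109 regions with a pileup of 50 or more, in orange, form a cloud of their own with fold enrichments from 1.37 to 3.37, apart from the 809 others in grey.

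The 5 tallest regions show what the second kind looks like. At chr24:56935126-56935359 (bosTau8, as all positions here) the pileup was 279 and 296 in MTO and 245 in LTO replicate 1, with no peak in the other 9 libraries, and the MTO fold enrichment was 1.37 and 1.39. At chr6:89217123-89217379 it was 248 in both MTO libraries and 234 in LTO replicate 1, again with no peak elsewhere among the single libraries. These regions thus had a peak in a tough library of the low eluate as well, yet in 1 of its replicates only. In the merged lists tender reads gave a peak there too. The region on chromosome 24 had a pileup of 205 in merged LTE and 255 in merged LTO. The region on chromosome 6 had 236 in merged MTE, 275 in merged MTO and 277 in merged HTE, without a merged HTO or LTE peak. The region chr6:45749165-45749343, with 220 and 233, had a peak in MTO alone among all 12 libraries. The remaining regions of this rank, chr8:11938216-11938411 (221 and 213) and chr7:110030637-110030851 (213 and 219), had a peak in HTE replicate 1 (188 and 198, respectively) and in HTO replicate 1 (199 and 223), so that the high eluate did not separate tender from tough there.

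Tall regions also lay close to other medium regions of any kind, tender peaks among them. The distance to the nearest medium region had a median of 379 bp in the 109 tall regions. It was 3250 bp in the other 809 and 4950 bp in all other medium regions. The distance to the nearest peak of an MTE library had a median of 404 bp and at most 2510 bp in the 109 tall regions, against a median of 4240 bp in the other 809. Counted over all 918, 242 (26.4%) had an MTE peak within 500 bp, a share that was not computed for the other medium regions. The tall regions were on 23 chromosomes, with 16 on chromosome 8, 11 on chromosome 19 and 8 each on chromosomes 1 and 6. The members were 175 to 1059 bp wide with a median of 247 bp, and the median of all other regions was 228 bp.

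At the edge of the rule the evidence was thin. The smallest −log10 q of a kept region was 2.86, at chr16:78929630-78929821 (MTO pileup 6 and 5) and at chr29:50012640-50012834 (8 and 7), followed by chr6:108500852-108501268 (12 and 8) with 2.97. Just outside, chr15:82076632-82076821 had pileups of 10 and 9 in MTO and was left out for a peak of pileup 5 and −log10 q 2.23 in MTE replicate 2. The regions chr7:23443959-23444254 (8 and 9 in MTO) and chr9:103946920-103947200 (12 and 12) were left out for peaks of pileup 6 and 9 in the same tender library. The values on both sides of the limit were therefore much alike, and a pileup of a few fragments decided the class.

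The merged lists, which rest on the same reads as the rule, held a tender peak at most of the regions. A peak of the merged MTE list overlapped 668 of the 918 regions (72.8%, against 94.6% of all medium regions), and a peak of the merged MTO list overlapped all of them (78.9% of all medium regions). In these 668 the pileup per 1000000 tags of the merged lists had a median of 1.15 in MTE and 2.02 in MTO. The median log2 difference of MTO over MTE was 0.80 (5th to 95th percentile 0.26 to 1.43), and 664 were higher in MTO. The same median was 0.26 in the regions with a peak in all 4 medium libraries and −0.57 in the tender-specific regions with a peak in both lists. The 250 regions (27.2%) without a merged MTE peak held 49 of the 109 tall ones.

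At the high level, tough-specific regions were present more often than tender-specific regions in each library of either beef. A peak was found in 14.5% and 18.7% of the 918 regions in HTE and in 18.8% and 22.1% in HTO. In the tender-specific regions the shares were 3.25% and 5.46% in HTE and 2.49% and 3.72% in HTO. The difference between the kinds of region was 11.2, 13.3, 16.4 and 18.4 percentage points in HTE replicates 1 and 2 and HTO replicates 1 and 2, with a mean of 14.8 ± 3.18 (SD, n = 4 libraries; two-sided exact sign-flip test, p = 0.125, which is the lowest p of this test with 4 libraries). Regions with a peak in 1 MTE and 1 MTO library lay between, with 7.60% and 11.2% in HTE and 6.37% and 9.03% in HTO, and the tough-specific regions exceeded them by 9.98 percentage points on average (exact sign-flip test, p = 0.125).

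At the low level the order of tough-specific and tender-specific regions was the opposite. A peak was found in 3.38% and 6.21% of the tough-specific regions in LTE and in 28.3% and 18.6% in LTO, and in 11.1%, 18.9%, 30.0% and 35.3% of the tender-specific regions. The tough-specific regions were below the tender-specific ones in 4 of 4 libraries. The difference was −7.75 and −12.7 percentage points in LTE and −1.70 and −16.7 in LTO, with a mean of −9.70 ± 6.45 (SD, n = 4 libraries; exact sign-flip test, p = 0.125). Regions with a peak in 1 MTE and 1 MTO library had shares of 4.96% and 9.58% in LTE and 23.9% and 24.2% in LTO. Against these the difference was −1.59 and −3.37 percentage points in LTE and 4.38 and −5.60 in LTO, a mean of −1.55 (exact sign-flip test, p = 0.5), so no order can be given there. The difference from tender-specific regions at the high level minus that at the low level was 24.5 percentage points. All 4 high libraries lay above all 4 low libraries (exact permutation test, two-sided, p = 0.0286, the smallest possible, and 0.229 after Benjamini-Hochberg adjustment over 11 tests of shares). With the levels paired by animal, the exact sign-flip test gave p = 0.125. Without the regions of pileup 50 or more, a setting added after the data were seen, the difference between levels was 21.5 percentage points. Set against all other regions in place of tender-specific ones, the shares were lower at both levels (−3.36 and −12.4) and the levels differed by 9.03 percentage points (exact permutation test, p = 0.0857). The medium libraries of tough and tender beef also differed in depth and fragment length (above), and the part of this in the result was not tested.

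Put together per region, 229 of the 918 regions (24.9%) had a peak in at least 1 high library and no low library, 245 (26.7%) in at least 1 low and no high library, 91 (9.91%) in both and 353 (38.5%) in neither. In all other medium regions these shares were 10.8%, 30.2%, 21.0% and 38.0%, so the shares found in low libraries only and in neither were near those of the other regions. The share found in high libraries only was above and the share found in both below. Of the tender-specific regions, 6.31% were found in high libraries only and 50.3% in low libraries only, and of those with a peak in 1 MTE and 1 MTO library 14.5% and 37.1%.

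**Figure D2:**
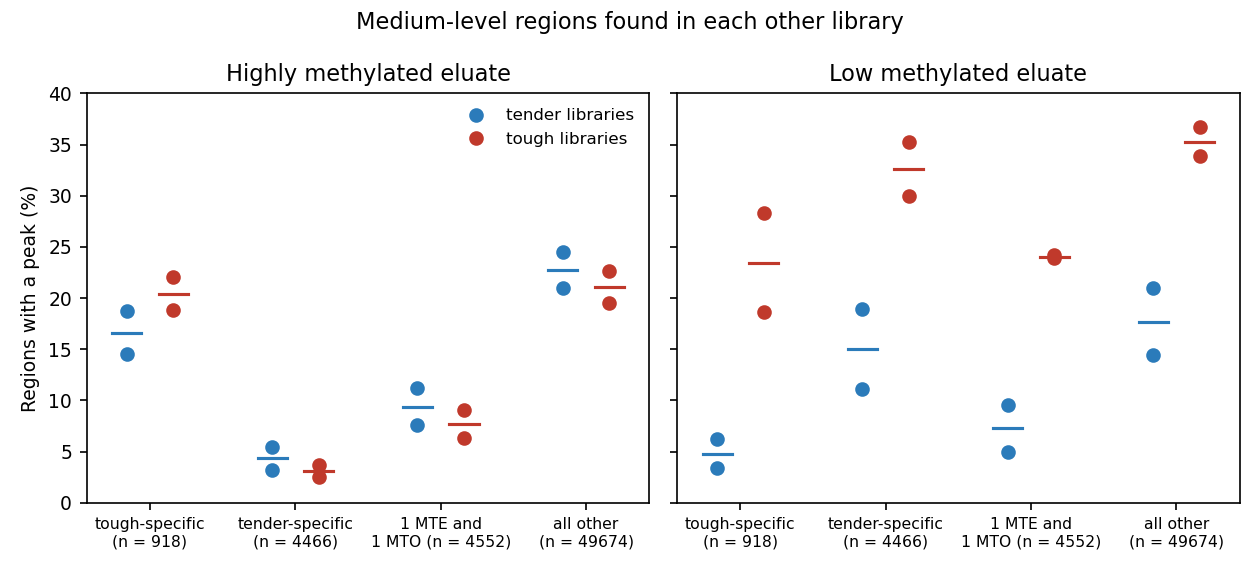
The share of regions with a peak (%) is shown for each high library (left) and each low library (right), in blue for tender and red for tough, with a bar at the mean of the replicates. Tough-specific regions sit above tender-specific regions in the 4 high libraries and below them in the 4 low libraries.

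The question of whether a tough-specific region at the medium level was also found more in tough beef at the other levels was asked within each eluate. At the high level each HTO library was above each HTE library, although 18.7% in HTE replicate 2 and 18.8% in HTO replicate 1 were nearly equal, and the difference of the means was 3.87 percentage points (16.6% ± 3.0 in HTE and 20.5% ± 2.31 in HTO, SD, n = 2; exact permutation test, two-sided, p = 0.333, which is the lowest p with 2 libraries against 2). The difference was 1.28 without MTE replicate 1, 0.374 without MTE replicate 2, 0.716 without MTO replicate 1 and 0.438 without MTO replicate 2. It was 1.74 without HTE replicate 1, 5.99 without HTE replicate 2, 5.50 without HTO replicate 1 and 2.23 without HTO replicate 2, and −0.244 with the same number of peaks per medium library. No difference between the beefs can be called from this. In all other medium regions the shares were 21.0% and 24.5% in HTE and 19.5% and 22.7% in HTO, a difference of −1.66 (exact permutation test, p = 0.667). Set against these regions library by library, the difference of the tough-specific regions was −6.51 and −5.75 percentage points in HTE and −0.644 and −0.555 in HTO, a mean of −3.36 (exact sign-flip test, p = 0.125). This mean was −5.29 without MTE replicate 1, −15.5 without MTO replicate 1 and −15.0 without MTO replicate 2. The tough libraries exceeded the tender ones in this relative share by 5.53 percentage points, without overlap (exact permutation test, p = 0.333).

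The direction of the comparison with all other regions depended on the tall regions. Without regions of pileup 50 or more on either side, the tough-specific regions exceeded the others at the high level by 0.141 and 0.835 percentage points in HTE and by 4.44 and 5.53 in HTO (mean 2.74, exact sign-flip test, p = 0.125). The difference of tough and tender was 4.50 percentage points in this setting (exact permutation test, p = 0.333). Among the 809 lower tough-specific regions, 13.0% and 17.9% had a peak in HTE and 16.2% and 21.1% in HTO, and the groups overlapped. Of the 109 tall ones, 25.7% and 24.8% had a peak in HTE and 38.5% and 29.4% in HTO.

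At the low level tough libraries held far more of the tough-specific regions, but they held more of every kind of region. The mean share was 4.79% ± 2.00 in LTE and 23.5% ± 6.86 in LTO (SD, n = 2), 4.90 times as high, and the groups did not overlap (exact permutation test, p = 0.333). In all other medium regions it was 14.4% and 21.0% in LTE and 33.9% and 36.7% in LTO, 1.99 times as high. In percentage points the gains were 18.7 and 17.6, and the difference between them of 1.08 lay within the spread of the libraries (exact permutation test, p = 1.00). Library by library, the tough-specific regions differed from the others by −11.0 and −14.8 percentage points in LTE and −5.61 and −18.1 in LTO, a mean of −12.4 (exact sign-flip test, p = 0.125). Without regions of pileup 50 or more the mean was −5.76 (exact sign-flip test, p = 0.25), and LTO replicate 1 turned to 0.718. The LTO libraries had 27783 and 28599 peaks on chromosomes 1 to 29 against 9555 and 16881 in LTE, and how far this number set the shares was not tested. The 2 LTO libraries also differed from each other more in the tough-specific regions (28.3% and 18.6%) than in the others.

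Few regions kept a clean contrast of tough and tender in another eluate. At the high level 32 of the 918 regions (3.49%, Wilson interval 2.48 to 4.88%) had a peak in both HTO and neither HTE library, against 0.538% of all medium regions, and 6 (0.654%) had the opposite pattern, against 1.14%. At the low level 70 (7.63%) had a peak in both LTO and neither LTE library, which was near the 7.32% of all medium regions, and 1 (0.109%) was the opposite, against 0.231%. Of the 32, 8 were tall regions, and of the 6, 4 were. The number of 32 rose to 51 without HTE replicate 2, 78 without HTO replicate 1 and 65 without HTO replicate 2, and the number of 70 rose to 129 without LTO replicate 1 and 200 without LTO replicate 2, since fewer libraries then had to meet the rule. The opposite pattern at the high level rose more, from 6 to 43 without HTE replicate 1, where 38 regions had the tough pattern. It rose to 27 without HTE replicate 2, 11 without HTO replicate 1, 28 without HTO replicate 2, 18 and 34 without MTE replicates 1 and 2, and 12 and 19 without MTO replicates 1 and 2. With the same number of peaks per medium library, 45 regions had the tough and 42 the opposite pattern, so the excess of the tough pattern rested on these choices.

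The tallest regions with a clean tough pattern at the high level were chr1:57474271-57474471, with pileups of 173 and 172 in MTO and 201 and 186 in HTO, and chr7:110036983-110037186, with 215 and 210 and with 213 and 186. The next were chr22:53650707-53650938 (176 and 169 in HTO), chr28:11368677-11368941 (184 and 167) and chr21:56304165-56304402 (147 and 120). All 5 were of the second kind, with MTO fold enrichments from 1.61 to 1.89. In 3 of them the merged HTE list nevertheless held a peak, the exceptions being chr1:57474271-57474471 and chr28:11368677-11368941. The opposite pattern was found at chr16:63175040-63175313 (196 and 199 in HTE), chr1:5268228-5268509 (176 and 197), chr28:39313537-39313928 (129 and 149), chr2:100661409-100661603 (125 and 150) and chr26:48199254-48199440 (9 and 9). Single medium and high libraries thus named opposite kinds of beef at these 5 regions, 4 of them tall. The merged lists did not keep this at the tall ones. The merged HTO list held a peak at chr16:63175040-63175313, chr1:5268228-5268509 and chr28:39313537-39313928. The merged MTE list held a peak at chr16:63175040-63175313, chr1:5268228-5268509 and chr2:100661409-100661603. Only chr26:48199254-48199440 had neither.

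At the low level the tallest regions with the tough pattern were chr8:56835689-56835868 (156 and 125 in LTO), chr27:28468897-28469130 (135 and 144), chr19:43724-44059 (125 and 107) and chr7:71926805-71926999 (109 and 92). The regions on chromosomes 19 and 7 nevertheless had a peak in the merged LTE list (103 and 95) and in the merged MTE list (158 and 155). Those on chromosomes 8 and 27 had neither, but the former had a peak of 181 in HTE replicate 1. The single region with the tender pattern there, chr16:72401660-72401879, had 10 and 7 in MTO and 8 and 8 in LTE. Only chr19:12707-12947 (0.109% of the regions, against 6.57% of all other medium regions and 0.0224% of the tender-specific ones) had a peak in all 8 high and low libraries. It had 151 and 154 in MTO, 111 and 134 in HTE, 128 and 128 in HTO, 73 and 83 in LTE and 126 and 106 in LTO.

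A wide region on chromosome 6 kept the contrast of tough and tender in all 3 eluates and in all lists. At chr6:108235675-108236733, 1059 bp and the widest of the 918, the pileup was 41 and 40 in MTO, 16 and 25 in HTO and 30 and 50 in LTO, and no tender library had a peak in it. The merged lists gave the same picture, with pileups of 74 in MTO, 37 in HTO and 65 in LTO and no peak in any tender list. Fold enrichments were 7.33 and 7.60 in MTO and −log10 q values 21.3 and 21.6, so the peaks were far from the authors' limit. Tender libraries did have peaks close by. The MTE replicate 2 library had one of pileup 15 that ended 422 bp before the region, and MTE replicate 1 had one of pileup 13 that began 1664 bp after it.

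Next to it, tough and tender peaks stood side by side. The region chr6:108233424-108233678, also tough-specific, had 35 and 31 in MTO and 29 and 37 in LTO, whereas the neighbouring region chr6:108233918-108234126 had 14 and 11 in MTE and no MTO peak and was tender-specific. The low libraries repeated this arrangement in part. LTE peaks of 11 and 9 lay just beside the LTO peaks, but that of LTE replicate 2 overlapped neither region. The merged LTE list had a peak of pileup 16 that overlapped both regions. In the high libraries HTE replicate 1 alone had a peak in the tough-specific region, of pileup 9, and the merged HTE list had 12 there.

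Across all 50592 medium regions, 3 had a peak in all 6 tough and none of the 6 tender libraries, and all 3 were therefore among the 918. No region had the mirror pattern. Besides the region on chromosome 6, these were chr26:45750660-45751215, with pileups of 9 and 9 in MTO, 8 and 8 in HTO and 20 and 19 in LTO, and chr2:136732339-136732915, with 9 and 14, with 7 and 9, and with 12 and 10. The merged lists held no tender peak in 2 of the 3. At chr2:136732339-136732915 the merged MTE list had a peak of pileup 9, against 20 in MTO. All 3 were wide, 556 to 1059 bp, and had low, sharp peaks. They were singled out after their values were seen. Over all medium regions the tough-only pattern was far more common than its mirror at the low level (7.32% against 0.231%). At the high level it was less common (0.538% against 1.14%). The counts of 3 and 0 are therefore not like for like. A tough-only pattern at both the high and the low level was found in 3 of the 918 (0.327%) and in 35 of all other medium regions (0.0705%).

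A stretch of chromosome 10 held 5 tough-specific regions within 4891 bp (chr10:96712760-96717650), all tall and with MTO pileups of 79 to 114. Tough and tender peaks alternated along it. Within 10000 bp on either side lay 16 medium regions, of which 5 were tough-specific and 4 tender-specific. All 5 tough-specific regions had a peak in both HTO libraries, and none had a peak in any low library. The high eluate was not tough-only there. All 5 had a peak in the merged HTE list, with pileups of 72 to 104 against 114 to 153 in merged HTO. The regions that start at 96714141, 96714687 and 96715687 had a peak in both single HTE libraries. None of the 4 tender-specific regions had a peak in a high library, and 3 had a peak in a low one. These low peaks were not tender-only. LTO replicate 2 had a peak at each of the 3 (57, 52 and 38), and the region that starts at 96718480 had no LTE peak. The merged LTO list held a peak at all 4 tender-specific regions (79, 70, 76 and 61). At chr10:96712760-96713071 the pileup was 79 and 93 in MTO and 70 and 81 in HTO, and HTE replicate 2 had 47. At chr10:96717453-96717650 it was 85 and 80 in MTO and 70 and 78 in HTO, with no HTE peak in a single library but 87 in merged HTE. The stretch was chosen after its values were seen, and the neighbouring regions share reads and sequence context, so they are not independent of each other.

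**Figure D3:**
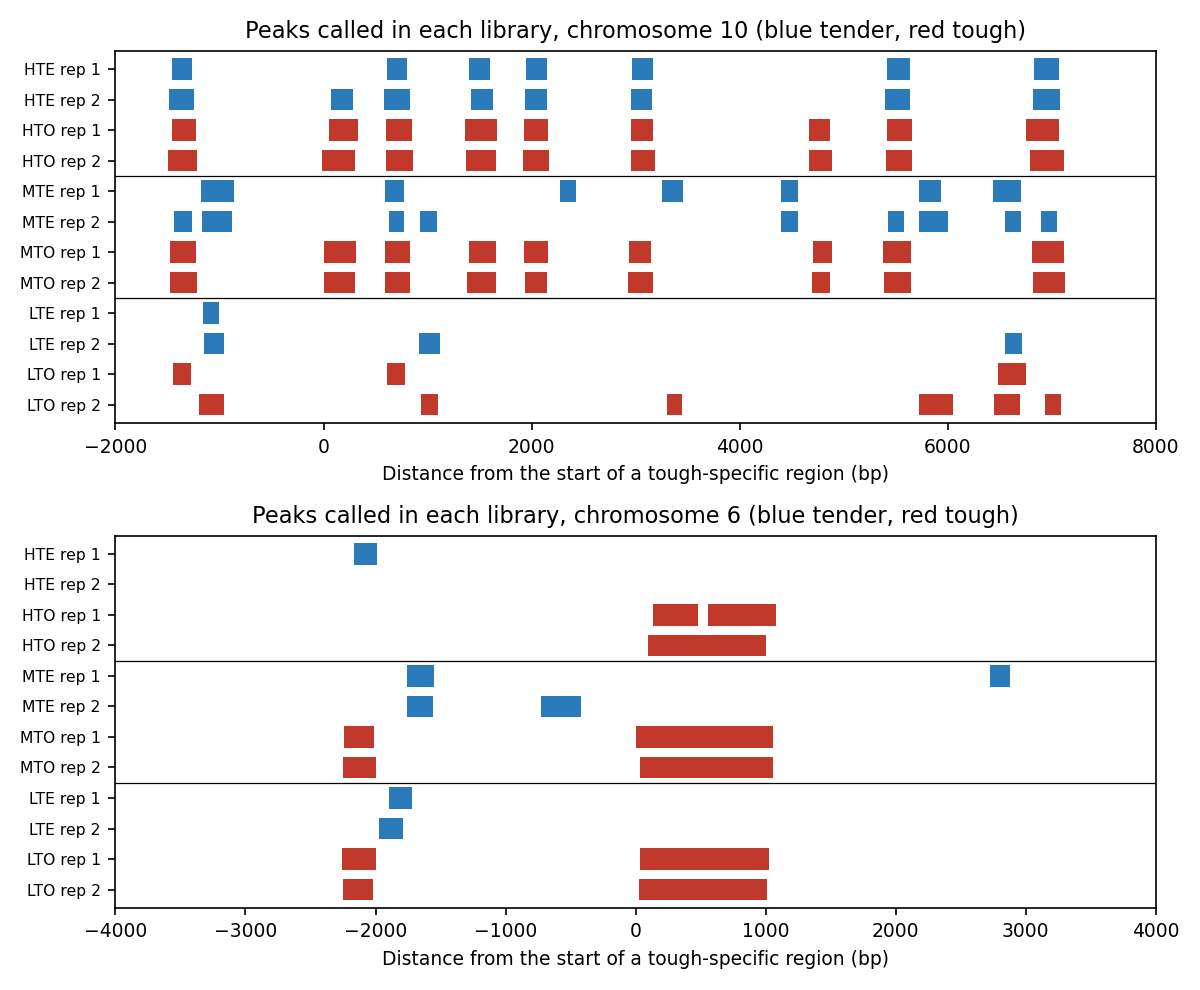
Peaks of the 12 libraries are drawn as bars on a scale of distance (bp) from the start of a tough-specific region, on chromosome 10 (top) and chromosome 6 (bottom), blue for tender and red for tough. On chromosome 10 the MTO bars line up with the high libraries and the MTE bars partly lie between them, and on chromosome 6 the region of 1059 bp is covered in the 6 tough libraries and no tender library.

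Of the 918 regions, 78 (8.50%) lay within 10000 bp of another, in 33 groups. The largest group had 6 regions at the start of chromosome 19 (chr19:33987-50508), all tall. There the medium regions around them were mostly shared: 16 of 28 had a peak in all 4 medium libraries, and none was tender-specific. The tough-specific regions of this group had MTO pileups of 126 to 153, and 3 of the 6 had a peak in 1 HTO library (112 and 123 in HTO replicate 2, 131 in HTO replicate 1) and none in a single HTE library. The merged HTE list held a peak at 3 of the 6, with pileups of 232, 177 and 170.

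Pileups were compared by limma in the regions with a peak in all 4 libraries of a level. Of the 918 regions, 63 entered at the high level and 9 at the low level, so most could not be tested this way, and those that entered were the ones found in tender beef too. At the high level the pileup per 1000000 tags was higher in HTO in 13 of the 63 (20.6%) and lower in none (limma, adjusted p under 0.05; 16 of 63 at an unadjusted p under 0.05). Over all 7222 regions tested 40.3% were higher and 0.443% lower, with a median log2 difference of 0.27, and the median of the 63 was 0.29. The share in the tough-specific regions was thus below the background, but the sets differed in pileup. Regions without a medium pileup of 50 or more were 50 of the 63 and 3058 of the 7222. The shares called were not compared at like pileup, so this order is not read as a trait of the tough-specific regions. Tall regions held most of the calls, with 11 of 13 tall regions called and 2 of the 50 lower ones. Without regions of pileup 50 or more, limma called 0 of the 3058 regions tested (117 at an unadjusted p under 0.05, 2 of them tough-specific). Centring each library on its median, which takes this shift away, left 1 of the 63 higher and 0 lower (7 at an unadjusted p under 0.05), and 0.222% of all regions higher and 0.457% lower. Without HTE replicate 1 the number was 1 and without HTE replicate 2 it was 4.

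The region left after centring was chr10:96714141-96714421, the second of the 5 in the stretch on chromosome 10. Its pileup was 45 and 61 in HTE and 108 and 99 in HTO, and per 1000000 tags 9.94 and 12.6 against 29.4 and 26.6. The log2 difference was 1.32 (SE 0.17, limma adjusted p = 8.54e-12) and after centring 1.05 (SE 0.16, limma adjusted p = 6.04e-08). In the per-million and centred fits of both levels, limma took the variance of a region wholly from the trend over all regions tested. The SE and p-values therefore do not measure the spread between the 2 animals of a group at a single region. Of its neighbours, chr10:96714687-96714915 and chr10:96715687-96715924 differed by 0.81 and 0.83 (adjusted p = 9.25e-05 and 8.81e-05 by limma), and after centring by 0.54 and 0.56 (adjusted p = 0.0759 and 0.0637). The pileups of tender and tough libraries did not overlap in the 3 regions, but on the unscaled pileup the first was no longer called (log2 difference 0.98, limma adjusted p = 0.364).

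The next largest differences were in low peaks. At chr17:2848463-2848815 the pileup was 9 and 9 in HTE and 14 and 17 in HTO, a log2 difference per 1000000 tags of 1.12 (SE 0.38, limma adjusted p = 0.0125), and at chr9:104195341-104195767 it was 16 and 19 against 25 and 31, a difference of 1.01 (SE 0.36, adjusted p = 0.0143). Neither passed after centring (limma adjusted p = 0.637 and 0.661), nor without HTE replicate 1 (0.25 and 0.257), HTE replicate 2 (0.174 and 0.15) or HTO replicate 2 (0.068 and 0.0892). The largest differences in the other direction did not pass: chr11:104347204-104347434 had 25 and 27 in HTE and 11 and 14 in HTO (log2 difference −0.73, SE 0.37, limma adjusted p = 0.112), chr25:32465068-32465438 had 56 and 84 against 38 and 43 (−0.42, adjusted p = 0.106) and chr22:58043710-58044191 had 12 and 16 against 7 and 10 (−0.39, adjusted p = 0.472). The unscaled summit pileups of these regions were higher in tender beef at the high level, although they had a peak only in tough beef at the medium level. They are the extremes of the 63 regions that entered, so no opposite difference can be called from them. At chr22:58043710-58044191 the values per 1000000 tags overlapped (2.65 and 3.30 in HTE, 1.90 and 2.69 in HTO).

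At the low level 1 of the 9 regions was higher in LTO and 0 were lower (1 of 9 at an unadjusted p under 0.05), against 17.2% and 1.63% of the 5043 regions tested, whose median log2 difference was 0.13. The median of the 9 was 0.00. The region called was chr19:12707-12947, with 73 and 83 in LTE and 126 and 106 in LTO (log2 difference per 1000000 tags 0.33, SE 0.12, limma adjusted p = 0.0342). It did not pass after centring (0.06, adjusted p = 0.795), nor without LTE replicate 1 (adjusted p = 0.209), LTE replicate 2 (0.385) or LTO replicate 1 (0.144). After centring, 0.496% of all regions were higher and 8.03% lower. The others at the ends of the range were chr5:15900983-15901265 (0.37) and chr24:28533317-28533601 (0.21) on the higher side and chr6:5453897-5454081 (−0.36), chr17:51840035-51840218 (−0.35) and chr6:5452412-5452691 (−0.17) on the lower side, with limma adjusted p from 0.372 to 0.693.

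The merged lists of the high and low levels, called at greater depth, gave the same order of tough-specific and tender-specific regions as the single libraries. A merged HTE peak overlapped 40.5% of the tough-specific regions (37.8% of all medium regions) and a merged HTO peak 38.7% (31.6%), whereas in the tender-specific regions it was 16.8% and 9.52%. A merged LTE peak overlapped 26.4% (45.5% of all) and a merged LTO peak 54.0% (70.6%), against 48.9% and 75.8% of the tender-specific regions. Against all medium regions the order at the high level differed from the single libraries, where the tough-specific regions lay below all others. In the merged high lists 101 regions (11.0%) were found in HTO only and 118 (12.9%) in HTE only, against 3.75% and 10.1% of all other regions. In the single libraries 111 (12.1%) had a peak in 1 or more HTO and no HTE library and 64 (6.97%) the reverse, against 4.44% and 5.97%.

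**Figure D4:**
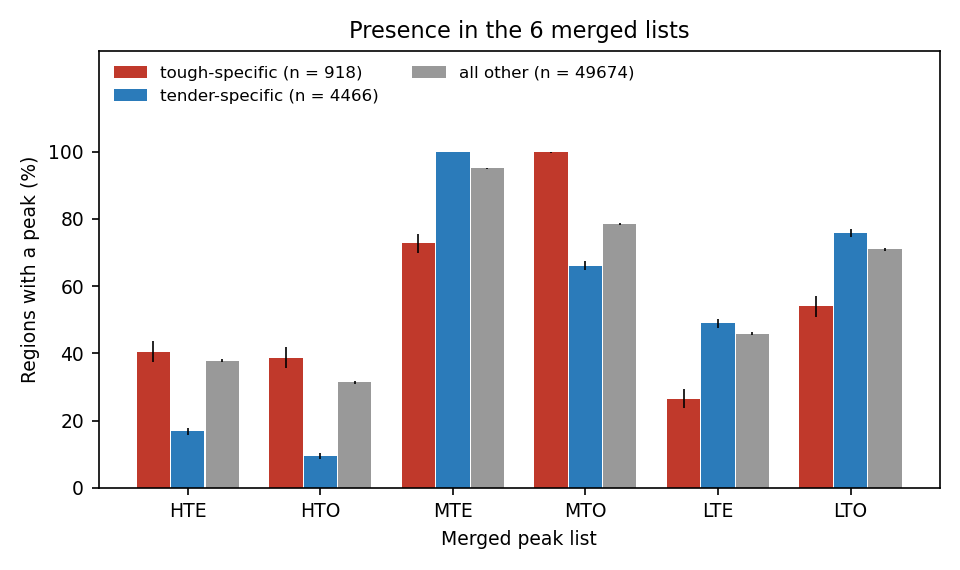
Bars give the share of regions (%) with a peak in each of the 6 merged lists, for tough-specific (red), tender-specific (blue) and all other medium regions (grey), with Wilson 95% intervals. Tough-specific regions exceed tender-specific ones in both high lists (40.5% against 16.8% in HTE, 38.7% against 9.52% in HTO) and fall below them in both low lists.

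No peak outside MTO, in any library or merged list, was found for 60 regions (6.54%). By the same high, low and merged lists, single MTE peaks aside, the share was 2.38% of all other medium regions. It was 0.439% of those with a peak in 1 MTE and 1 MTO library. Regions defined by MTE peaks can hardly lack a merged MTE peak, so these shares are not like for like. The tallest of them were chr6:45749165-45749343 (220 and 233 in MTO), chr3:86723236-86723415 (206 and 208), chr8:110717636-110717852 (191 and 188), chr29:30280842-30281024 (179 and 186) and chr29:30272660-30272923 (167 and 156). Their MTO fold enrichments ranged from 1.54 to 1.89, and an MTE peak lay 358 to 862 bp away from each.

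Along the genome, the tough-specific share was highest on chromosomes 12 (39 of 1541 regions, 2.53%, Wilson interval 1.86 to 3.44%), 6 (44 of 1780, 2.47%, 1.85 to 3.30%) and 9 (43 of 1740, 2.47%, 1.84 to 3.31%). It was lowest on chromosomes 22 (16 of 1666, 0.960%, 0.592 to 1.55%), 2 (1.21%) and 13 (1.29%). The intervals of chromosomes 12 and 2 only just failed to overlap, and most chromosomes could not be told from the mean at this number of regions. Within 5 Mb before the last peak of a chromosome lay 30.0% of the tough-specific regions (27.1 to 33.0%), 23.9% of all other and 26.1% of the tender-specific regions. Of the 109 tall ones this was 6.42%, against 33.1% of the other 809.

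**Figure D5:**
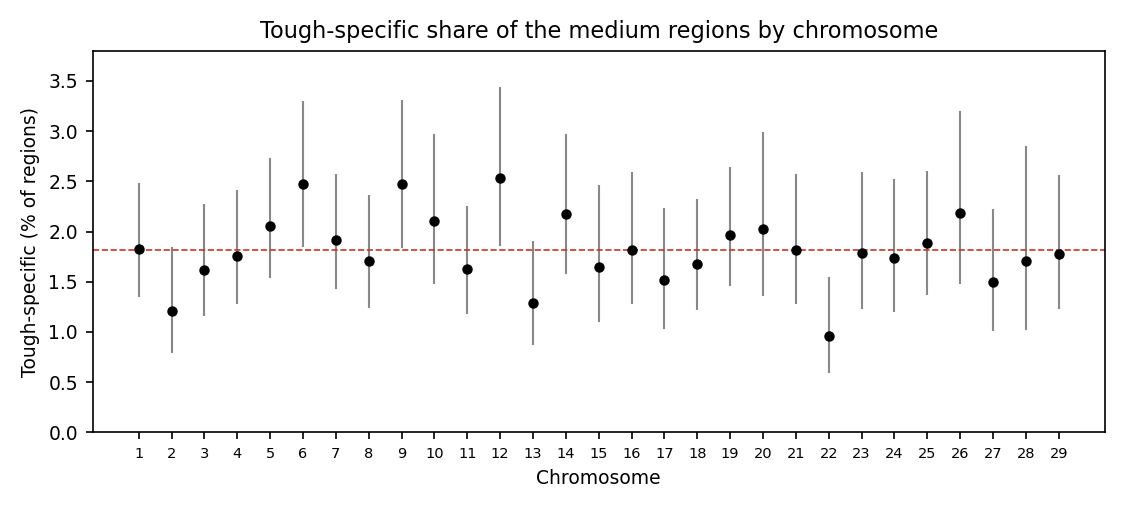
Points give the share of the medium regions of each chromosome that were tough-specific (%), with Wilson 95% intervals, and the dashed line is the share over all 29 chromosomes (1.81%). Chromosome 22 has the lowest share (0.960%) and chromosome 12 the highest (2.53%).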

How the data were processed

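MBD-seq libraries of 2 tender and 2 tough animals, each in 3 eluates, were used as 12 deposited peak lists of single libraries and 6 of merged replicates. Reads had been cleaned by the authors with SOAPnuke and aligned to bosTau8 by BWA (0.7.7, per the submitters' processing notes). MACS2 was then run on the unique reads with a q limit of 0.01 and no input control. The pileup in the lists is a signal of fragments stacked at the summit, as the authors' MACS2 run wrote it, not scaled to depth. The fold enrichment is a ratio to the local background, and −log10 p and −log10 q are from the same run of the authors. A list holds no signal outside its peaks, so a region without a peak has no value and is not a 0. Single and merged lists were called with different MACS2 versions.

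The members and all lists, rules and limits were chosen with earlier results of these data known. Peaks sharing at least 1 bp were joined, and presence in another list needed 1 bp. Shares were compared over libraries by two-sided exact permutation or sign-flip tests, with Wilson intervals for counts. Pileup per 1000000 tags left after duplicate removal was compared on the log2 scale by limma 3.58.1 (trend, Benjamini-Hochberg over all regions tested, threshold 0.05) in regions with a peak in all 4 libraries of a level, which needed no pseudocount. Groups came from the sample titles, and libraries of one beef and replicate number were taken to be one animal, which no source states. Regions named were the 5 tallest, those at the edge of the rule, the 5 tallest of each pattern in another eluate, those with the largest limma differences and the 3 chromosomes at either end. Regions outside this rule are named as such. Python 3.11.15, pandas 2.3.3, scipy 1.17.1, matplotlib 3.10.9 and R 4.3.3 were used, and the code was tested on simulated data and against bedtools. Depth was 3677473 to 7981292 tags per library. The alternatives changed the joining, the presence overlap, the peak limits, the scaling and the libraries used. Chromosome X was left out by the rule. Genes, sequence, CpG islands and repeats were not analysed here.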

Additional observations from a re-analysis of the deposited data

Results flagged for a closer look

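Tough-specific regions of the medium eluate had a peak more often than tender-specific regions in 4 of 4 high libraries and less often in 4 of 4 low libraries, and the difference between the levels was 24.5 percentage points (two-sided exact permutation test over 4 against 4 libraries, p = 0.0286, adjusted p = 0.229 over 11 tests of shares). The high and low libraries come from the same 4 animals, and paired by animal the exact sign-flip test gave p = 0.125. It stands here because the difference from tender-specific regions changed sign between the eluates. Against all other regions it was negative at both levels (−3.36 and −12.4, a difference of 9.03, exact permutation test, p = 0.0857). Against regions with a peak in 1 MTE and 1 MTO library the levels differed by 11.5 (exact permutation test, p = 0.0286), with 1 of the 4 low libraries above 0. Paired by animal, the exact sign-flip test gave p = 0.125 for each of these contrasts, and neither was among the 11 adjusted tests.

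Chromosome X lay outside the rule for the regions. On it 35 of 1353 medium regions (2.59%) had a peak in both MTO and neither MTE library, and 73 were tender-specific. It stands here because these peaks were used in no comparison, and no control sample gives a level to set them against.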

How the results depend on the processing

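The number of tough-specific regions was 2252 with the same number of peaks per medium library and 1721 to 3702 with 1 medium library left out. With the same number of peaks, the difference of tough and tender in their share at the high level was −0.244 percentage points, and the difference from all other regions 0.458. That difference also turned positive with fold enrichment of at least 3 (9.36 at the high and 0.577 at the low level) and, at the high level, without regions of pileup 50 or more (2.74, a setting added after seeing the data). Regions with the clean tough pattern numbered 36 to 78 at the high and 79 to 200 at the low level with 1 library left out, and 162 at the low level with the same number of peaks. The 13 limma calls at the high level became 1 after median-centring, 0 unscaled (7 at an unadjusted p under 0.05), 3 per fragment length, 0 without regions of pileup 50 or more (2 at an unadjusted p under 0.05) and 1 to 13 with 1 library left out. The single call at the low level became 0 in the same 4 settings (at most 2 at an unadjusted p under 0.05) and 0 to 1 with 1 library left out. Among single regions, chr6:5452412-5452691 turned to 0.07 unscaled, chr5:15900983-15901265 to −0.08 without LTE replicate 2 (−0.08 to 0.82 with 1 library left out) and chr24:28533317-28533601 to −0.06 after centring. The cause of these changes was not tested. The same replicate number stands for another animal in each kind of beef. Same-numbered tender and tough libraries deviated from their group means with a correlation over regions of 0.19 at the high and −0.08 at the low level. With the replicate number as a block the differences in share stayed 3.87 and 18.7 percentage points, and limma called 14 and 1 of the regions, among them chr11:104347204-104347434 as lower in HTO (adjusted p = 0.0392). With 2 animals a group, exact permutation tests within a level could not go below p = 0.333, and pileups of 5 to 10 fragments in most regions limit what their absence from a list shows.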
